A study of Mus musculus with 19 samples.

Results

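The naive and primed states of mouse pluripotency were compared in 5 of the 19 RNA-seq libraries of the series, 3 from embryonic stem cell (ESC) lines and 2 from epiblast stem cell (EpiSC) lines. Libraries were assigned by the state and strain in their titles, because the source name and characteristics named another state or strain in all 19 libraries. Each library came from 1 line, so the spread within a state is a spread between lines of different strains. The remaining 14 libraries, from induced pluripotent stem cells, took no part in the comparison.

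The ESC lines were NOD/ShiLtJ, WSB/EiJ and 129S1/SvImJ, here NOD, WSB and 129. They were male, came from 1 laboratory, and were grown in serum with LIF and sodium pyruvate together with inhibitors of MEK and GSK3B. Their titles name no medium. The EpiSC lines were a NOD line and FT129/4, a line of 129/Sv background here called the 129 EpiSC. They were male too, came from 2 other laboratories and were kept under standard EpiSC conditions. No EpiSC line of the WSB strain was compared. The titles end in P6 for each ESC library, P38 for the NOD EpiSC and P16 for the 129 EpiSC. State, medium, source laboratory and this number therefore cannot be told apart. Depletion of feeder fibroblasts was described for the iPSC lines only.

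Naive ESC correspond to the epiblast before implantation and self-renew under LIF, which acts through Stat3, helped by active Wnt signalling and low ERK signalling. A circuit of transcription factors that includes Esrrb, Klf4, Klf2, Tbx3, Tfcp2l1 and Nanog holds them there. Primed EpiSC resemble the epiblast after implantation, depend on FGF and activin, keep Pou5f1 and Sox2, and lose most of that circuit.

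Counts on genes ran from 115660 in the WSB ESC to 220983 in the NOD EpiSC, and the share of uniquely aligned pairs from 1.15% in the NOD ESC (95% Wilson interval 1.14 to 1.15, counting error only) to 1.36% in the NOD EpiSC (1.35 to 1.36). At this depth most genes had few counts, and 2745 genes passed the filter on low counts. Levels are given as CPM, the TMM-scaled counts on the scale of edgeR's cpm, on which 3 counts are 16.7 in the NOD EpiSC and 29.4 in the WSB ESC. The library kit keeps the strand, but which strand the counts came from is not given in the sources used here. With so small a share of pairs on genes, the counts of any gene may in large part be reads of the strand opposite to its transcript. This was not tested, and a level given here is the count under that gene's name. Opposite-strand exons of other genes overlapped 1511 of the 2745 genes tested, and 61.8% to 73.9% of the counts of a library fell on genes of that kind.

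Several short sequences at loci named in the results are given first. Larp7, the gene with the highest EpiSC level among those that passed the test below, carries within its introns the 5 hairpins of the miR-302/367 cluster, on the opposite strand at chr3:127545228-127545807 (GRCm38, plus strand). This cluster is the miRNA family best known from primed and human pluripotent cells, while the miR-290 to miR-295 cluster on Chromosome 7 is its counterpart in naive mouse cells. Mature 3p arms are shown from RefSeq (GRCm38.p6) with the seed, bases 2 to 8, in capitals. The miRNAs themselves were not measured in these libraries.
miR-302b-3p: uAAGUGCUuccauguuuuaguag
miR-302d-3p: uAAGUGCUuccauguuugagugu
miR-302c-3p: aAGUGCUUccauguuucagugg
miR-367-3p: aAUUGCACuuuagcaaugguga
miR-291a-3p: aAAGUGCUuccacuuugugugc
miR-294-3p: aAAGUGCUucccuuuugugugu
miR-295-3p: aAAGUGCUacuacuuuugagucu
The seed AAGUGCU was common to miR-302b, miR-302d, miR-291a, miR-294 and miR-295, so members of both clusters share it. In miR-302c-3p the entry starts 1 base later and bases 2 to 8 read AGUGCUU. The seed of miR-367-3p differs from the others.

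Promoters are given for genes that fell at opposite ends of the comparison, Zfp42 (higher in ESC) and Pim2 (lower in ESC). Each run is the 250 bases before the RefSeq start on the gene's strand (GRCm38.p6). Capitals mark ATGCAAAT, the octamer that POU factors such as Pou5f1 bind, on either strand.
Zfp42, chr8:43307010-43307259, minus strand: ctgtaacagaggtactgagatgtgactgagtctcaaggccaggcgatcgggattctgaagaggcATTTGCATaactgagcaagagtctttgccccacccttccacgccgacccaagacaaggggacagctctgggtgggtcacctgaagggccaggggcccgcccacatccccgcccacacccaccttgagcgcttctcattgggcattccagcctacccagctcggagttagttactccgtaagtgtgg
Pim2, chrX:7878056-7878305, plus strand: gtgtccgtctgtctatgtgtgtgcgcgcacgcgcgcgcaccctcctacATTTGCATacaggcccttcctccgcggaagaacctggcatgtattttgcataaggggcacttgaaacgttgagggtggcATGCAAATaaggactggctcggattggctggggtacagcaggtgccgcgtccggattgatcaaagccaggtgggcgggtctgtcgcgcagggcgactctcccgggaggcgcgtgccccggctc
The octamer was found in 1.6% of 32851 promoters of this length, 1 match in Zfp42 and 2 in Pim2. Among genes that passed the test and had a promoter in the table it stood in 3 of 110 that were higher in ESC and 3 of 115 that were lower, against 30 of 2029 tested genes. A match describes letters in a window and says nothing of binding in these cells.

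The comparison asked which genes differ between the naive and the primed lines. By edgeR's quasi-likelihood test with Benjamini-Hochberg adjustment, 329 of 2745 genes passed an adjusted p of 0.05 (12.0%), with 170 higher in ESC (6.19%) and 159 lower (5.79%). In 328 of the 329 the 3 ESC libraries lay all above or all below both EpiSC libraries. The exception was Mterfd2, where a count of 331 in the 129 EpiSC stood against 17 in the NOD EpiSC and 6 to 15 in the ESC. Over all genes tested, the ESC lay above both EpiSC in 24.4% and below both in 21.6%, so a lack of overlap alone is common with 3 against 2 libraries. The median log2 difference over all genes tested was 0.10. The number past the threshold was 159, 205 and 154 without the NOD, WSB or 129 ESC, 668 without the NOD EpiSC and 374 without the 129 EpiSC.

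**Figure D1:**
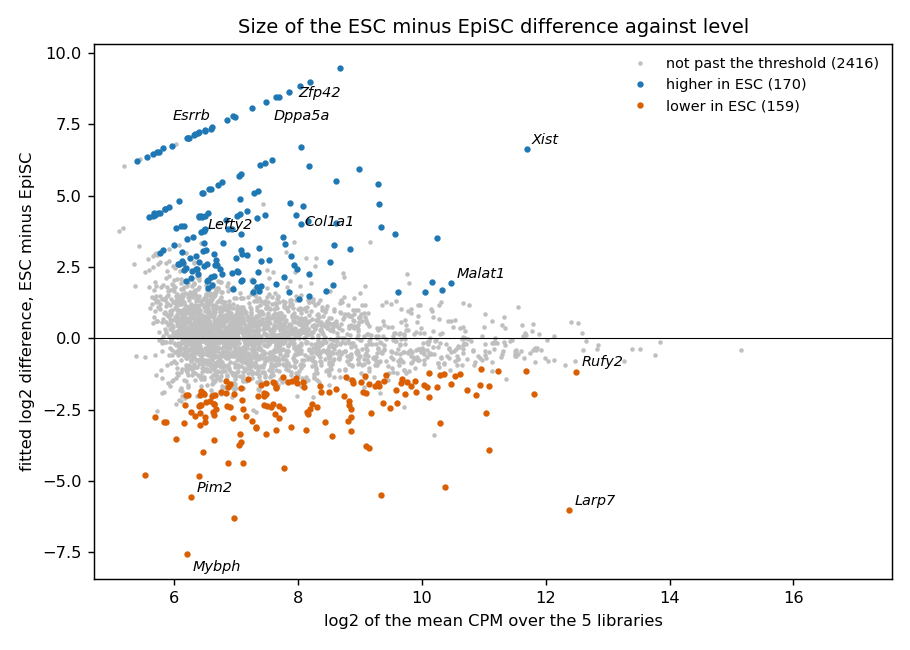
Fitted log2 difference (ESC minus EpiSC) against the log2 of the mean CPM over the 5 libraries, 1 point per gene tested, with genes past an adjusted p of 0.05 in blue (170 higher in ESC) and orange (159 lower). Xist and Larp7 stand apart at high level, and the upper diagonal rows are genes with no or almost no count in EpiSC, whose fitted size depends on the prior count.

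Naive pluripotency genes were the clearest group, with 12 of the 13 that passed the filter higher in ESC and 0 lower (8 past the threshold by DESeq2, 6 in edgeR without the 129 ESC). Calls over all genes tested were 6.19% higher and 5.79% lower. Of all 26 listed genes, 19 had every ESC above both EpiSC and 0 had every ESC below, where 12.7% and 13.1% of all genes with a count did so. Because a gene absent from EpiSC can pass the filter only through the ESC, the share among tested members is a description. The median log2 difference of the tested members was 4.80, or 3.94 with genes at 0 in both EpiSC set to their lower bound. Counts summed over the list came to 2250 to 3190 CPM in the ESC and 208 to 340 CPM in the EpiSC.

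Zfp42, a zinc finger gene also called Rex1 and a classical mark of naive cells, had 53, 25 and 50 counts in the NOD, WSB and 129 ESC and 0 in both EpiSC. All 3 ESC were high and the EpiSC had none. The ESC mean was 384 ± 143 CPM (SD, n = 3), at least 40.1-fold above the level that 3 counts over both EpiSC would give (edgeR adjusted p = 0.00304, range 7.54e-07 to 0.0226 over 11 alternatives). Dppa5a, an RNA-binding protein gene of the early embryo, had 33, 32 and 33 counts against 0 and 0. Its level was 330, 314 and 249 CPM in the NOD, WSB and 129 ESC. Its ESC mean was 298 ± 43.3 CPM (SD, n = 3), at least 30.7-fold higher (edgeR adjusted p = 0.00304, range 1.72e-07 to 0.0226).

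Esrrb, an orphan nuclear receptor of the naive circuit, had 10, 20 and 37 counts in the ESC and 0 in both EpiSC, at least 21-fold higher. Klf4, the factor through which LIF and Stat3 act on the circuit, had 12, 10 and 27 counts against 0 and 0, at least 15.3-fold higher. In both genes the 129 ESC was the highest and no EpiSC read was counted. The edgeR adjusted p was 0.00678 for Esrrb and 0.00713 for Klf4, and both stayed past the threshold under all 11 alternatives (largest 0.0257 and 0.0272).

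Tfcp2l1, another target of LIF, had 16, 17 and 66 counts in the ESC against 0 and 1 in the EpiSC. The pooled ratio was 93.0, with an exact counting interval from 16.3 to 3710 because 1 EpiSC count carries it. Klf2, a Krüppel-like factor of the naive circuit, had 10, 14 and 15 counts against 2 and 1, a ratio of 12.2 (3.88 to 61.8). Klf2 passed edgeR's test (adjusted p = 0.0128) but not with strain as a block (range 0.00317 to 0.0585).

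Tbx3 had 10, 2 and 28 counts in the ESC against 1 and 0, so the WSB ESC was close to the EpiSC in counts. Its edgeR adjusted p was 0.0393, and it was 0.0568 by DESeq2 and 0.0523 with uniquely aligned pairs as library size (range 0.00195 to 0.0568). Tdh, the threonine dehydrogenase on whose activity mouse ESC rely, had 6, 17 and 11 counts against 0 and 0, at least 10.6-fold higher. Fgf4, the main FGF ligand made by naive cells, had 7, 10 and 12 counts against 0 and 1.

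Nanog, which guards the naive state, was lower but not absent in EpiSC, with 10, 8 and 22 counts against 4 and 3. Its log2 difference was 2.34 ± 0.62 (standard error; edgeR adjusted p = 0.0381). That call was lost without the NOD ESC, the 129 ESC, the NOD EpiSC or the 129 EpiSC (adjusted p 0.0744, 0.0848, 0.059 and 0.0593; range over the alternatives 0.0137 to 0.2). Zfp57, which keeps imprints methylated, had 25, 25 and 46 counts against 9 and 14, a log2 difference of 1.89 ± 0.47 that was also lost with any 1 ESC or the NOD EpiSC left out (adjusted p 0.031; range 0.00345 to 0.133).

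Gbx2 was the tested naive gene that did not pass (log2 difference -0.53 ± 0.75, edgeR adjusted p = 0.662). This homeobox gene, a Stat3 target, had 10, 12 and 8 counts in the ESC, 3 in the 129 EpiSC and 42 in the NOD EpiSC. The NOD EpiSC was thus the highest of the 5 and the groups overlapped. Among members too low to test, Dppa4, Nr0b1, Prdm14, Tcl1, Fbxo15 and Pecam1 had counts in every ESC and 0 in both EpiSC. Spic had 0 counts throughout, Pramel6 and Pramel7 had 1 and 2 counts in the NOD ESC alone, Dppa2 had 1 in the 129 ESC and 1 in the 129 EpiSC, and Dppa3 had 3 in the WSB ESC alone.

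**Figure D2:**
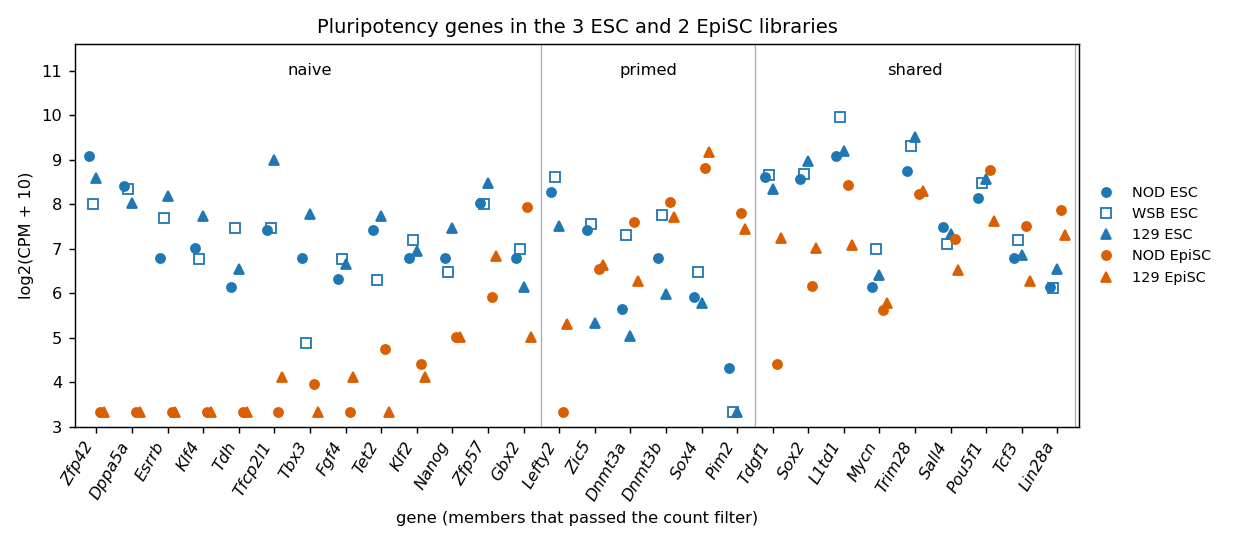
log2(CPM + 10) of the naive, primed and shared pluripotency genes that passed the count filter, with 1 point per library (blue ESC, orange EpiSC; circle NOD, square WSB, triangle 129). The ESC points lie above both EpiSC for each naive gene but Gbx2, while the shared genes include both separated and overlapping ones.

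Primed genes were less uniform. Of 24 listed genes 6 passed the filter, 2 of them lower in ESC (Pim2 and Sox4) and 1 higher (Lefty2). Over all genes tested 5.79% were called lower and 6.19% higher. The median log2 difference of the 6 was -0.93. Over the whole list 8 genes had every ESC below both EpiSC and 2 had every ESC above, where 13.1% and 12.7% of all genes with a count did so. The summed level was 588 to 1420 CPM in the ESC and 1700 to 1890 CPM in the EpiSC. Pim2, a serine/threonine kinase gene, had 1, 0 and 0 counts in the ESC and 38 and 22 in the NOD and 129 EpiSC. Both EpiSC were high and the ESC nearly empty, a ratio of 63.9 in favour of EpiSC (11 to 2570, exact counting interval; edgeR adjusted p = 0.00518, range 0.000509 to 0.0269).

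Sox4, a SOXC transcription factor gene, had 5, 8 and 6 counts in the ESC and 79 and 76 in the EpiSC. Its log2 difference was -3.11 ± 0.42 (edgeR adjusted p = 0.00445, range 6.61e-05 to 0.0272), and an antisense gene overlaps 2616 of its exonic bases. Sox11, a close relative that was among the 12 genes with the largest decrease in ESC, had 2, 2 and 0 counts against 51 and 16. Its call (log2 difference -3.97 ± 0.77, edgeR adjusted p = 0.0129) was lost without the 129 ESC or the NOD EpiSC (0.0558 and 0.132; range 0.000323 to 0.132).

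Dnmt3b, the de novo DNA methyltransferase that is high in the primed epiblast, had 10, 21 and 7 counts in the ESC and 46 and 27 in the EpiSC. In CPM the WSB ESC reached the level of the 129 EpiSC, so the groups overlapped, and the log2 difference of -0.96 ± 0.53 did not pass (edgeR adjusted p = 0.261). Fgf5, the standard mark of the primed epiblast, had 17 counts in the 129 EpiSC and 0 in the other 4 libraries. Otx2 had 0, 3 and 7 counts in the ESC and 3 and 3 in the EpiSC, and Zic5 16, 18 and 4 against 15 and 12. Fgf5 thus marked 1 of the 2 EpiSC lines.

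Lefty2, a secreted inhibitor of Nodal, went the other way, with 30, 39 and 23 counts in the ESC and 0 and 4 in the EpiSC. Every ESC lay far above both EpiSC, a log2 difference of 4.33 ± 0.84 (edgeR adjusted p = 0.0132; 0.05 without the NOD ESC, which missed the threshold; range 0.000173 to 0.05). Nodal itself was too low to test, at 5, 5 and 8 counts against 1 and 3.

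Of 12 genes shared by both states 9 were tested, with 1 higher in ESC and 0 lower (11.1% past the threshold). This was close to the 12.0% over all genes tested. The median log2 difference was 0.99, 5 of the 9 had an unadjusted edgeR p under 0.05, and 0 passed without the 129 ESC. Over the list 6 genes had every ESC above both EpiSC and 1 had every ESC below. Of all genes with a count, 12.7% and 13.1% did so. Pou5f1, the POU factor of every pluripotent state, had 27, 35 and 49 counts in the ESC and 76 and 25 in the EpiSC, with overlap and a log2 difference of 0.10 ± 0.44 (edgeR adjusted p = 0.903). Sox2, its partner, had 37, 41 and 65 counts against 11 and 16. This was a log2 difference of 2.24 ± 0.45 (edgeR adjusted p = 0.0146; 0.0599 without the 129 ESC; range 0.000183 to 0.0599). Tdgf1, the Nodal co-receptor, had 38, 40 and 42 counts against 2 and 19 and just missed the threshold (edgeR adjusted p = 0.0688), as did Lin28a in the opposite direction, with 6, 6 and 11 against 40 and 20 (0.0624).

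Larp7, a protein that binds the 7SK RNA, had the highest EpiSC level among genes lower in ESC. It had 13, 39 and 12 counts in the NOD, WSB and 129 ESC and 2238 and 1826 in the NOD and 129 EpiSC. Both EpiSC lay far above every ESC, and Larp7 took 1.01% of the counts of the NOD EpiSC and 0.953% of those of the 129 EpiSC. The log2 difference was -6.03 ± 0.54 (edgeR adjusted p = 0.00235, range 2.43e-29 to 0.0217). The gene lies at chr3:127536714-127553349 on the minus strand, with the 5 miR-302 cluster hairpins on the plus strand about midway, and 0 of them overlap an annotated Larp7 exon. Whether the counts came from Larp7 or from transcription across it on the other strand was not tested.

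**Figure D3:**
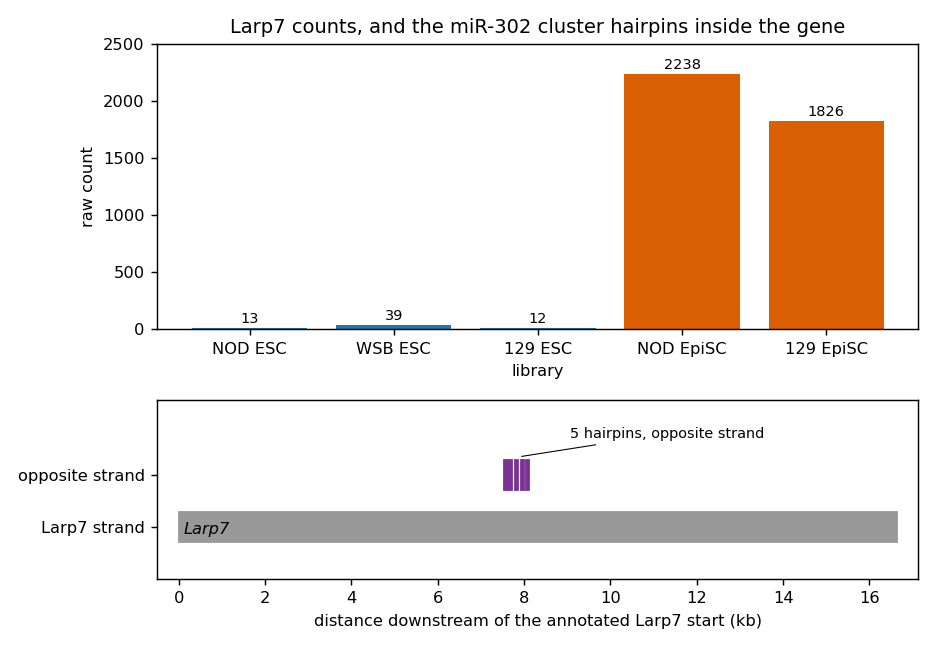
Above, raw Larp7 counts in each library (bars from 0). Below, the Larp7 gene from its start at 0 kb with the positions of the 5 miR-302 cluster hairpins on the opposite strand. The EpiSC bars stand at 2238 and 1826 and the ESC bars at 12 to 39, and the map marks the hairpins near the middle of the gene.

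For the counterpart cluster the tables hold counts of a gene across it. Hairpins of Mir291b, Mir292, Mir293, Mir294 and Mir295, overlap exons of Nlrp12 on the opposite strand, and Nlrp12 had 3, 10 and 2 counts in the ESC and 0 in both EpiSC. It was too low to test, at least 4.7-fold higher in ESC. The uncharacterised gene AU018091, nearby on Chromosome 7, had 7, 7 and 14 counts against 0 and 0. Both were chosen after their values were seen.

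Xist, the RNA that silences an X chromosome, was the most abundant gene higher in ESC, in lines that are all male. It had 593, 610 and 596 counts in the NOD, WSB and 129 ESC and 2 and 14 in the NOD and 129 EpiSC. The 3 ESC were nearly alike, at 5470 ± 849 CPM (SD, n = 3), against 57.6 ± 65.6 CPM (SD, n = 2) in the EpiSC. The log2 difference was 6.63 ± 0.72 (edgeR adjusted p = 0.00299, range 1.15e-26 to 0.0217). Tsix, the antisense RNA that runs across Xist and is active in ESC, had 26, 25 and 66 counts against 0 and 0, at least 36.6-fold higher (edgeR adjusted p = 0.00315, range 5.37e-05 to 0.0379). Exons of Tsix and 2 other genes overlap 2061 of the 17946 exonic bases of Xist on the opposite strand. In the bases they share, reads of Xist and Tsix cannot be told apart without the strand. For the rest of Xist, which strand the counts came from was not tested. Of the Y-linked genes none passed the filter, and Ddx3y had 3, 9 and 9 counts in the ESC and 6 and 7 in the EpiSC while Kdm5d had 0, 1 and 0 against 4 and 3. Eif2s3y and Uty had at most 8 counts, with overlapping groups.

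Other genes among the 12 largest increases in ESC were at 0 in both EpiSC. Gabrp, a GABA receptor subunit gene, had 51, 65 and 41 counts, at least 49.1-fold higher (edgeR adjusted p = 0.00304, range 1e-05 to 0.0217). BC065397, which shares 98 exonic bases with Morf4l2, had 136, 60 and 12 counts and so fell off strongly in the 129 ESC. The rest were 4933438K21Rik, Hydin, a gene of motile cilia, Rps4y2, annotated as a transcribed processed pseudogene, Apba1, the synuclein gene Sncg and Upp1, a uridine phosphorylase, with 7 to 87 counts per ESC library. The least of these bounds was 16.9-fold, for Upp1.

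Largest decreases included Mybph, a myosin-binding protein gene, with 0 counts in each ESC and 26 and 30 in the EpiSC, at least 19.9-fold lower in ESC. Mybph shares 1162 exonic bases with Adora1. Glyctk, a glycerate kinase gene, had 0, 1 and 0 counts against 76 and 26, and lies across Mir135a-1 and another gene on the opposite strand. Aph1a, a subunit of gamma-secretase, had 3, 7 and 1 counts against 411 and 114, a log2 difference of -5.50 ± 0.70 (edgeR adjusted p = 0.00315, range 1.78e-12 to 0.025), and its overlapping neighbour Car14 had 6, 9 and 8 against 36 and 36. A230070E04Rik, with 1, 3 and 27 counts against 323 and 616, held under all 11 alternatives. The other 5 lost their edgeR calls when a library was left out: Gpr39 without the 129 EpiSC (adjusted p 0.121), 1700058G18Rik without the 129 ESC (0.0627), 4833422C13Rik without the NOD EpiSC (0.0988), Gm9767 without either EpiSC (0.0762 and 0.165) and Glyatl3 without the NOD ESC, the 129 ESC or the NOD EpiSC (0.0598 to 0.0831).

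The other genes among the 5 most abundant higher in ESC had smaller differences than Xist. Malat1, a nuclear non-coding RNA, had 252, 158 and 259 counts in the ESC against 135 and 40, a log2 difference of 1.93 ± 0.46. Hsp90aa1, a chaperone, had 175, 195 and 218 against 128 and 51 (1.69 ± 0.38), and B3gnt9 had 255, 136 and 136 against 52 and 73 (1.98 ± 0.50). E130003G02Rik, antisense to Grin1, had 574 counts in the 129 ESC, 77 and 64 in the NOD and WSB ESC, and 30 and 23 in the EpiSC. Malat1 lost the call without the NOD or the 129 ESC, Hsp90aa1 with any 1 ESC left out and under the strain block, and B3gnt9 without the NOD or the WSB ESC and under the block (highest edgeR adjusted p 0.0867, 0.103 and 0.1). E130003G02Rik lost it in the fit of 17 libraries (0.158).

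Of the 5 most abundant genes lower in ESC with groups that do not overlap, Larp7 and Trim7 held under all 11 alternatives. Trim7, a ubiquitin ligase gene, had 137, 225 and 192 counts against 1132 and 898 (log2 difference -1.95 ± 0.30, edgeR adjusted p = 0.00678, range 3.16e-05 to 0.0358). Rufy2, Masp2 and Serinc4 had log2 differences of -1.18 ± 0.26, -1.16 ± 0.26 and -1.14 ± 0.31. Each lost its call when any of the 3 ESC was left out and under the strain block (highest adjusted p 0.289, 0.246 and 0.285). All 4 overlap exons on the opposite strand. The neighbours of 3 of them that could be tested, Hnrnph3 for Rufy2, Tardbp for Masp2 and Hypk for Serinc4, did not pass (log2 differences 0.20, 0.37 and 0.17).

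Direction differed with that overlap. Of the 1200 genes tested without opposite-strand exons, 95 were higher in ESC (7.92%) and 31 lower (2.58%). Among the 1511 with such exons 74 were higher (4.9%) and 122 lower (8.07%). When only the 1200 were scaled and fitted by themselves, 66 were higher and 49 lower. That fit changed the scaling, the dispersions and the number of genes adjusted over together. Zfp42, Dppa5a, Esrrb, Klf4, Pim2, Larp7 and Col1a1 have no such exons, whereas Xist, Sox4 and most genes of the previous paragraph do.

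Among DNA methylation genes 3 of 8 tested members were higher in ESC and 0 lower, beside 6.19% and 5.79% over all genes tested (16 listed, median log2 difference 0.70; 1 past the threshold without the NOD ESC or without the 129 ESC). Dnmt3l, the cofactor of the de novo methyltransferases, had 21, 14 and 11 counts in the ESC against 0 and 1. Tet1 and Tet2, which oxidise 5-methylcytosine, had 41, 31 and 51 against 17 and 3, and 16, 7 and 27 against 3 and 0. All 3 genes had every ESC above both EpiSC. Groups did not overlap in 328 of the 329 called genes, so such an order comes with nearly every call. Dnmt3l kept its call under 11 alternatives (edgeR adjusted p = 0.0103, range 0.00121 to 0.0354), Tet1 lost it without the NOD or the 129 ESC (0.0716 and 0.0732; range 0.000795 to 0.0732) and Tet2 without the NOD ESC (0.0661, its highest). Tet3, too low to test, had 5, 0 and 1 counts against 18 and 8.

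Polycomb and histone methylation genes gave 2 calls of 10 tested, Eed and Kdm5b, both higher in ESC, with a median log2 difference of 1.07 (17 listed, 16 in the tables), beside 12.0% past the threshold over all genes tested. The list had 0 past the threshold by DESeq2, with uniquely aligned pairs as library size, and with any 1 ESC or the 129 EpiSC left out, and 4 without the NOD EpiSC. Eed had 22, 23 and 32 counts against 16 and 7 and Kdm5b 31, 39 and 45 against 26 and 16. Both sat close to the threshold (edgeR adjusted p 0.0369 and 0.0492), and both were lost with any 1 ESC or the 129 EpiSC left out, Kdm5b also without the NOD EpiSC (up to 0.171 and 0.211 over the alternatives).

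Signalling genes had low counts. Of 15 LIF/STAT3 genes 4 were tested and 2 passed, beside 12.0% over all genes tested. Klf4, at 0 in both EpiSC, could be tested only through the ESC. Klf4 and Tfcp2l1, both already counted in the naive list above, passed. Gbx2 and Jak1 did not, the latter at 19, 16 and 16 counts against 57 and 53 (log2 difference -1.19 ± 0.39, edgeR adjusted p = 0.0737). Socs3, the feedback inhibitor that Stat3 induces, had 5, 5 and 11 counts in the ESC and 1 and 0 in the EpiSC, and Bcl3 had 4, 3 and 3 against 0 and 0.

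In the FGF/ERK list 2 of 23 genes were tested and Fgf4 alone passed, beside 12.0% over all genes tested. Its edgeR adjusted p was 0.0259, and it did not pass by DESeq2 (0.0818, the highest of a range from 0.000674). Over the list, 9 of the 23 had every ESC below both EpiSC and 4 had every ESC above, where 13.1% and 12.7% of all genes with a count did so. The 4 were Fgf4 and 3 genes induced by ERK, Etv5 at 6, 9 and 17 counts against 6 and 6, Ier2 at 5, 4 and 9 against 7 and 4, and Ier3 at 3, 1 and 3 against 0 and 1. The 9 were Fgf8 and Fgfr2 with 7 targets or feedback inhibitors of ERK, so genes induced by ERK stood on both sides. Egr1 had 0 counts in each ESC and 4 and 7 in the EpiSC, Dusp6 0 in each ESC and 1 and 8, and Spred1 0, 3 and 1 against 9 and 11. Spry1, Spry2, Spry4 and Dusp4 had 0 to 2 counts per ESC library and 2 to 5 per EpiSC library. None of the 9 was tested, and the counts of orders rest on low depth.

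Of the 21 Nodal/activin genes 4 were tested, with Lefty2 higher and 0 lower, beside 6.19% and 5.79% over all genes tested. The median log2 difference was 1.65. Acvr2a and Skil did not pass. Of 22 Wnt/beta-catenin genes 3 were tested (Ctnnb1, Apc and Ccnd1, median -0.20) and 0 passed, beside 12.0% over all genes tested. Among the 3, 1 had an edgeR unadjusted p under 0.05 and 0 passed by DESeq2. So few tested genes cannot show whether the list differed. None of the 15 BMP and Id genes was high enough to test, and Id1, Id2 and Id3 had at most 2 counts in any library.

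Lists of epithelial and mesenchymal genes, 3 tested in each, had 0 calls by edgeR or DESeq2, beside 12.0% by edgeR over all genes tested. These lists had 1 gene each at an unadjusted edgeR p under 0.05 (median log2 differences 0.88 and -0.05). Without the NOD EpiSC they had 2 and 1 calls, and without the 129 EpiSC 1 and 2. Cdh1, the E-cadherin gene, had 24, 33 and 25 counts in the ESC and 38 in the 129 EpiSC but 0 in the NOD EpiSC. Zeb2, a repressor of Cdh1, had 2, 0 and 1 counts in the ESC, 49 in the NOD EpiSC and 8 in the 129 EpiSC. The 2 EpiSC thus differed from each other in both genes, and the NOD EpiSC had the highest Zeb2 and no Cdh1 count.

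Markers of other cells were checked for each library. Of 32 fibroblast genes listed, 11 were tested, 5 were higher in ESC and 0 lower, beside 6.19% and 5.79% over all genes tested. The median log2 difference was 2.1, and 3 were past the threshold without the WSB ESC. Lox and Ccdc80, at 0 in both EpiSC, could pass the filter only through the ESC. Of the 32, 17 had every ESC above both EpiSC, 0 had every ESC below and 13 overlapped. Among all genes with a count, 12.7% lay above and 13.1% below in this way. The list summed to 3400, 4000 and 5240 CPM in the NOD, WSB and 129 ESC, 390 CPM in the NOD EpiSC and 2250 CPM in the 129 EpiSC. Col1a1, the main collagen chain of fibroblasts, had 32, 41 and 64 counts in the ESC and 3 and 3 in the EpiSC, a log2 difference of 4.32 ± 0.52 (edgeR adjusted p = 0.00304, range 2.35e-05 to 0.0226).

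Lox and Ccdc80 had 8 to 25 and 7 to 24 counts per ESC library and 0 in both EpiSC. Fbln2 had 16, 18 and 17 against 5 and 3, and Col12a1 had 14, 23 and 34 against 0 and 7, a call lost with any 1 ESC left out (edgeR adjusted p 0.0461, range 0.000233 to 0.138). Fn1 and Thbs1, which did not pass, had 81 and 60 counts in the 129 EpiSC against 12 and 3 in the NOD EpiSC. The fibroblast markers Pdgfra and Dcn were at 0 in all 5 libraries and Lum had 1 count. The level of this list was higher in the ESC, where the naive genes were higher too, and its part in the other differences was not tested. In bulk RNA, fewer cells of a type and less RNA per cell cannot be told apart.

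Other lineages were near empty. Of 20 extraembryonic genes only Col4a1 was tested (log2 difference 0.12). It did not pass by edgeR or DESeq2, beside 12.0% past the edgeR threshold over all genes tested. Its unadjusted edgeR p was not under 0.05. Cdx2, Gata3, Gata4 and Afp were at 0 throughout. Of 19 germ layer genes only Nes was tested, at 6, 5 and 3 counts in the ESC against 25 and 29 in the EpiSC (log2 difference -2.02 ± 0.52, edgeR adjusted p = 0.0352, range 0.0101 to 0.159), a call lost with any 1 ESC or the 129 EpiSC left out. Of 12 neural genes 2 were tested, Nes and Mapt, which was higher in ESC at 11, 8 and 17 counts against 4 and 1 (log2 difference 2.69, edgeR adjusted p = 0.0343). The Mapt call was lost by DESeq2 (0.144, its highest), under the strain block and without the NOD ESC, the 129 ESC or the 129 EpiSC. Eomes had 21 counts in the 129 EpiSC and 3 to 5 elsewhere, and T had 5 in the 129 EpiSC alone. None of the 21 germline genes passed the filter, although Rpl10l had 3, 5 and 19 counts and Dazl 2, 1 and 6 in the ESC against 0 in both EpiSC.

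Among 24 glycolysis genes 16 were tested, with 3 higher in ESC (Hk1, Gpi1 and Aldoa), 1 lower (Pgam2) and a median log2 difference of 0.59, beside 12.0% past the threshold in either direction over all genes tested. The number past the threshold was 1, 0 and 0 without the NOD, WSB or 129 ESC, 7 without the NOD EpiSC, 2 without the 129 EpiSC and 1 by DESeq2. Hk1, which starts glycolysis, had 7, 8 and 22 counts against 1 and 1, and the fructose-bisphosphate aldolase Aldoa 84, 135 and 139 against 82 and 31. Pgam2, a phosphoglycerate mutase, had 5, 2 and 6 against 41 and 21. The calls of Gpi1 and Aldoa were lost with any 1 ESC or the 129 EpiSC left out, and that of Pgam2 with any 1 ESC or the NOD EpiSC left out (highest adjusted p 0.213, 0.163 and 0.0845). Of 21 cytochrome c oxidase genes 6 were tested and 1 passed, beside 12.0% over all genes tested. Cox11, an assembly factor, was lower in ESC (-1.51 ± 0.39, edgeR adjusted p = 0.0343). Its call was lost with any 1 ESC left out, by DESeq2 and under the strain block (0.195, its highest). Gapdh, usually abundant, had at most 4 counts in any library.

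**Figure D4:**
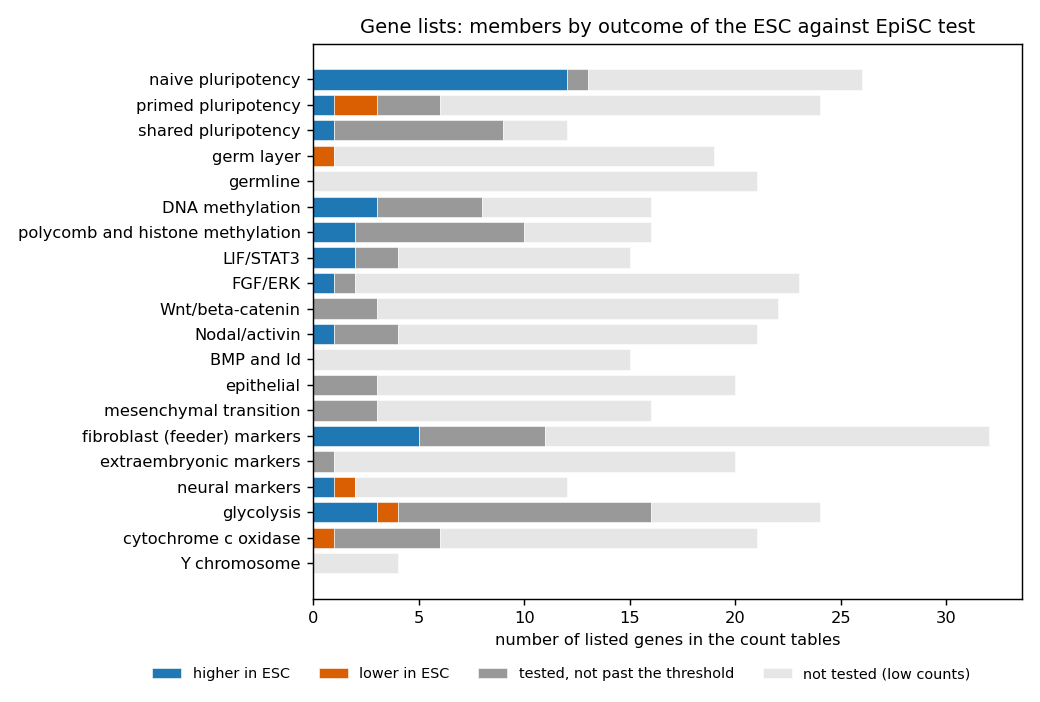
Number of genes of each list in the count tables, split into higher in ESC (blue), lower in ESC (orange), tested without passing (dark grey) and too low to test (light grey). The naive list has 12 of 13 tested members higher in ESC, and in most other lists the light grey part is the longest.

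Within strain, the NOD ESC was set against the NOD EpiSC and the 129 ESC against the 129 EpiSC, with 1 library on each side and no test. All 329 genes past the threshold had the same direction in both pairs, a match the fit favours since it used the same libraries. Across the 2745 genes tested the 2 sets of log2 differences, which share no library, had a Pearson correlation of 0.571 (Spearman 0.502), and 65.9% of genes had the same sign. Genes are not independent replicates and no p is given. Larp7 differed by -6.42 in NOD and -7.00 in 129, and Xist by 7.81 and 5.24. Zfp42 differed by 5.15 in NOD and 4.67 in 129, and Col1a1 by 3.39 and 3.72.

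**Figure D5:**
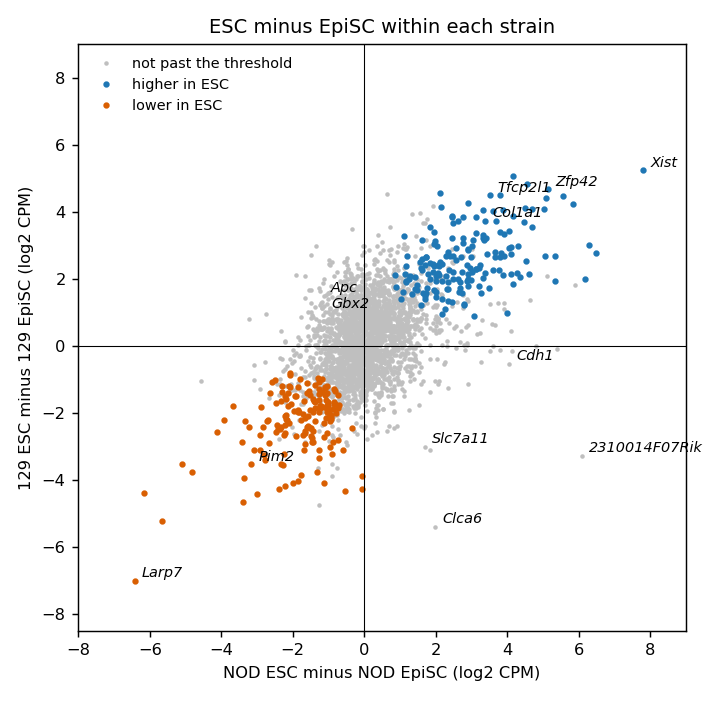
log2 CPM of the NOD ESC minus the NOD EpiSC against that of the 129 ESC minus the 129 EpiSC, 1 point per gene tested, coloured by the outcome of the test over 5 libraries. Genes past the threshold lie in the lower left and upper right, and 2310014F07Rik, Clca6 and Slc7a11 lie in the lower right, where the strains disagree.

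The count tables of the 2 EpiSC differed by a chi-square of 9.25 per degree of freedom, against 3.17 to 3.28 for the 3 pairs of ESC and 10.2 to 15.0 for pairs of an ESC and an EpiSC, a measure that rises with depth, and the EpiSC libraries were the deepest. The correlation of log2 CPM over tested genes was 0.83 between the EpiSC, 0.838 to 0.851 between ESC, and 0.626 to 0.655 across states. Slc7a11, the cystine transporter, had 693 counts in the 129 EpiSC and 2 in the NOD EpiSC, beside 7, 1 and 83 in the ESC. H2-T10, an MHC class I gene, had 392 counts in the NOD EpiSC and 5 in the 129 EpiSC, with 149 in the NOD ESC and 0 in the other ESC. Clca6 had 129 counts in the 129 EpiSC and 2 in the NOD EpiSC, and the genes of this paragraph were chosen after their values were seen.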

How the data were processed

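RNA was sequenced from paired-end stranded mRNA libraries. Per the labels and methods, the authors trimmed reads with Trimmomatic, aligned them to GRCm38/mm10 with TopHat2 2.1.1 and made the deposited counts with HTSeq in intersection-nonempty mode. The strand setting, the annotation release and the Trimmomatic and HTSeq versions are not given in the sources used here. The deposited values are raw counts of read pairs for 23420 genes with 5 HTSeq summary rows, which were kept out of library sizes and tests (98.6% to 98.9% of uniquely aligned pairs fell on no gene or were ambiguous).

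The 5 libraries were fitted with edgeR 4.0.16 (R 4.3.3): filterByExpr, TMM, quasi-likelihood F-test, Benjamini-Hochberg adjustment over 2745 genes. Standard errors are the fold change divided by the root of F. A gene at 0 in a group was compared with a floor of 3 counts over that group, and low counts by a pooled ratio with an exact 95% interval. p-values measure the spread between lines. Wilson intervals (scipy 1.17.1) cover counting error only. Counts were simulated from these libraries with the common dispersion for every gene, so spread that differs between genes was not covered. In them edgeR recovered 51.6% of 192 genes changed by a log2 of 2 (2404 genes run, 2 false calls). It recovered 99.5% of 200 changed by a log2 of 4 (2386 genes run, 12 false calls).

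Gene models were GENCODE M21; 98.4% of symbols matched. Named genes were 6 markers, the 12 largest and 5 most abundant called genes per direction with groups that do not overlap, and members of 20 gene lists. Members and lists were chosen with earlier results of these data known, and some genes after these values were seen. Some genes are not reported here. DESeq2 1.42.0 and fits with 17 libraries (2 NOD male iPSC libraries with 5.59% and 5.62% of pairs on genes left out) were among the alternatives.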

Additional observations from a re-analysis of the deposited data

Results flagged for a closer look

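Outliers were not sought, since the groups hold 3 and 2 libraries. Differences between the strains were looked for among the list members tested, taking genes whose NOD and 129 pairs moved in opposite directions by at least 1 on the log2 scale. Gbx2 differed by -1.11 between the NOD ESC and NOD EpiSC and by 1.01 between the 129 ESC and 129 EpiSC. Apc, a component of the beta-catenin destruction complex, differed by -1.14 in NOD and 1.48 in 129, from 8, 13 and 23 counts in the NOD, WSB and 129 ESC and 35 and 7 in the NOD and 129 EpiSC. Each pair is 1 library against 1, and the difference between strains was not tested in either gene.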

How the results depend on the processing

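The 329 genes past the threshold became 346 with DESeq2 size factors, 259 with uniquely aligned pairs as library size and 257 by DESeq2. The count was 729 with no filter on low counts and 112 with a mean of at least 20 counts. It was 115 among genes without opposite-strand exons, 601 in a fit of 17 libraries, 747 with strain added to that fit, and 86 at an adjusted p of 0.01. All 329 had a log2 difference of at least 1. Leaving out each library in turn gave 154 to 668 genes. With strain as a replicate block over the NOD and 129 libraries 188 genes passed, and 205 in the same libraries without the block, a setting chosen after seeing the data. With groups taken from the characteristics instead of the titles 0 of 2286 genes passed in edgeR, 102 had an unadjusted p under 0.05, and no other tool was run. The cause of these changes was not tested beyond the smaller number of genes or libraries in some of them. Direction was followed under 11 alternatives for 62 genes, 61 of them past the threshold and the other Dnmt3b. Of their 663 values, 545 stayed on their side of the threshold, 118 fell below it and 0 changed direction. The count describes genes that had mostly passed already. Other genes named here, such as Gbx2, Pou5f1, Apc and Jak1, are not in it. The strain block took 17 of 57 of the followed genes below the threshold and DESeq2 13 of 62. With uniquely aligned pairs as library size, the median shift of a gene's log2 difference against the main fit was 0.117. The median shift was 0.179 with a mean of at least 20 counts and -0.337 in the fit of genes without opposite-strand exons. The correlation of the within-strain differences was 0.585 with a prior count of 0.5 and 0.559 with 5. Of all aligned pairs 0.722% to 0.874% fell on genes. Depth limits most lists, since most of their members did not pass the count filter. The labels carry no replicate numbers, and the block pairs lines of like strain, not of 1 animal.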

Other observations

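Some genes of lipid synthesis, chosen after their values were seen and so given as values, had lower counts in ESC. They belong to a list of 24 genes of cholesterol synthesis and fatty acid desaturation, of which 10 were tested. In edgeR 3 were lower and 0 higher, beside 5.79% and 6.19% over all genes tested, and 1 passed by DESeq2. Groups overlapped in 15 of the 24, and 9 had every ESC below both EpiSC, beside 13.1% of all genes with a count. Scd2, a stearoyl-CoA desaturase, had 30, 30 and 50 counts in the NOD, WSB and 129 ESC and 130 and 180 in the NOD and 129 EpiSC, a log2 difference of -1.66 ± 0.39 (edgeR adjusted p = 0.0259, range 0.00137 to 0.145). Cyp51, the lanosterol demethylase, had 4, 1 and 8 counts against 23 and 35. Both calls were lost with any 1 ESC or the 129 EpiSC left out (highest edgeR adjusted p 0.207 for Cyp51). Hmgcs1, which acts early in sterol synthesis, had 7, 15 and 26 counts against 61 and 60 and missed the threshold (edgeR adjusted p = 0.0625).

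Other genes chosen after their values were seen included the following. Peg3as had 32, 44 and 31 counts in the ESC and 629 and 849 in the EpiSC, a log2 difference of -3.90 ± 0.39 (edgeR adjusted p = 0.00299, range 4.11e-15 to 0.0217). Peg3 itself had 2, 0 and 3 against 18 and 19, a call lost whichever of the 5 libraries was left out (edgeR adjusted p = 0.0387, range 0.0234 to 0.284). Suv39h1, an X-linked histone methyltransferase gene, had 139, 83 and 116 counts against 7 and 5, a log2 difference of 4.71 ± 0.50 (edgeR adjusted p = 0.00299, range 3.72e-11 to 0.0217), and shares 767 exonic bases with a gene on the opposite strand. Apoe, the lipid carrier, had 67, 75 and 51 against 9 and 10 (3.26 ± 0.50). The antiviral cytidine deaminase gene Apobec3 had 13, 20 and 14 against 0 and 1.

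Tuba1a, Marcks, Basp1 and Mdk, also chosen after their values were seen, had 8, 11 and 8 counts against 48 and 51, 11, 10 and 4 against 69 and 34, 50, 58 and 40 against 200 and 210, and 6, 6 and 4 against 73 and 18. Their calls were lost without the NOD or the 129 ESC (edgeR adjusted p up to 0.146 over their alternatives).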
